A study of Mus musculus with 4 samples.

Results

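In regulatory T (Treg) cells from the spleen of 12-day mice, 10 genes reached their highest level among 4 libraries: Grifin, Khdc1a, Drc1, Gpr83, Capn3, Gsta4, Lad1, Cldn10, Trpm1 and Actg2. They are 10 of 32285 genes in each count matrix, of which 18266 had a count in the cells used. They were picked from these data because they lead clusters made mostly of neonatal spleen cells, so their levels in that library and in its clusters are how they were chosen and are described without a test. Their working name was markers of resting Treg cells, and the cells matched that name for some of them only. Among clusters with at least 100 neonatal spleen cells, Grifin, Khdc1a, Drc1 and Gpr83 were highest in the main resting-like cluster and in 1 small unnamed cluster, Gsta4, Cldn10 and Trpm1 were highest in another unnamed cluster, Lad1 was high there and in cells with a T cell receptor response, and Actg2 was low in resting-like cells.

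The study sequenced single Treg cells of mouse liver and spleen at 2 ages, 12 days (neonatal) and 7 weeks, with a 10x Genomics 5' kit, and made 1 library for each tissue and age. All mice were C57BL/6 with Foxp3GFP, a fluorescent tag on the transcription factor that defines Treg cells, and CD4+ cells enriched on beads were sorted for GFP. The 12-day mice are given as Foxp3GFP-Cre with a Rosa26 loxP-Stop-loxP-YFP reporter, whereas for the 7-week mice, whose stage label reads "aged", only Foxp3GFP is given. Differences between the ages below can therefore not be told apart from a difference in genotype, if there was one. The number of mice behind a library is not stated. With 1 library in each group there is no replicate check and no test between groups. Every interval below is an exact 95% interval that covers counting error only. It is Poisson for levels, conditional binomial for ratios of levels and Clopper-Pearson for shares of cells. For pairs of genes it is the Poisson interval of the cells with both, divided by an expected number taken as fixed. Levels are counts of unique molecular identifiers (UMIs) per 1000000 UMIs of a library or cell group (CPM). In a summed library, fewer cells of a type and less RNA per cell cannot be told apart.

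Treg cells restrain immune responses. Resting Treg cells resemble naive T cells, with lymph node homing receptors and survival genes, and recirculate through spleen and lymph nodes, while effector Treg cells carry migration and suppression genes and settle in tissues. Gpr83 is known as a receptor enriched in Treg cells, and most of the other genes are best known from lens, retina, muscle, cilia, epithelium or oocytes.

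The libraries held 5681 cells used and 30174067 UMIs in neonatal spleen, 5339 cells and 28944151 UMIs in neonatal liver, 5677 cells and 18740516 UMIs in 7-week spleen, and 2339 cells and 6990380 UMIs in 7-week liver. Median depth ran from 2633 to 4531 UMIs per cell and was deepest in neonatal spleen. Foxp3 was at 410 to 466 CPM in the 4 libraries. Any pair of libraries shared 15 to 49 cell barcodes among the cells used, and without the 362 cells concerned the counts of members at least 2-fold higher, given below, were 10 over neonatal liver (Actg2 then passed), 10 over 7-week liver and 8 over 7-week spleen. Erythroid markers summed to 293 CPM in neonatal spleen (7 of 7 with counts, Hbb-bs at 197 CPM) and to 4.01 to 11.2 CPM in the other libraries (3 to 6 of 7 with counts). The part of red cell RNA in the levels below was not tested.

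Each of the 10 genes was highest in neonatal spleen, as were 25.5% of the 8046 genes that reached 10 CPM in any library. A ratio of at least 2 over neonatal liver was found for 9 of 10 genes, against a background of 1.15% of 7554 genes. Actg2, at 1.9987, lay just under that line, and was over it with edgeR's TMM scaling, and Capn3, at 2.90, was the nearest above it. Over 7-week liver the count was 10 of 10 (background 4.7%) and over 7-week spleen 8 of 10 (background 3.16%), without Lad1 and Gpr83. Over each other library at once it was 7 of 10, among 21 such genes in all (0.261%). The choice of the genes used these contrasts, so nothing is read from the counts. Ranked by the ratio of neonatal spleen to the highest other library among 6861 genes, Trpm1 (3.47), Gsta4 (3.20) and Drc1 (3.19) took ranks 1 to 3, and Gpr83 (1.21), at rank 296, was the lowest of the 10.

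**Figure D1:**
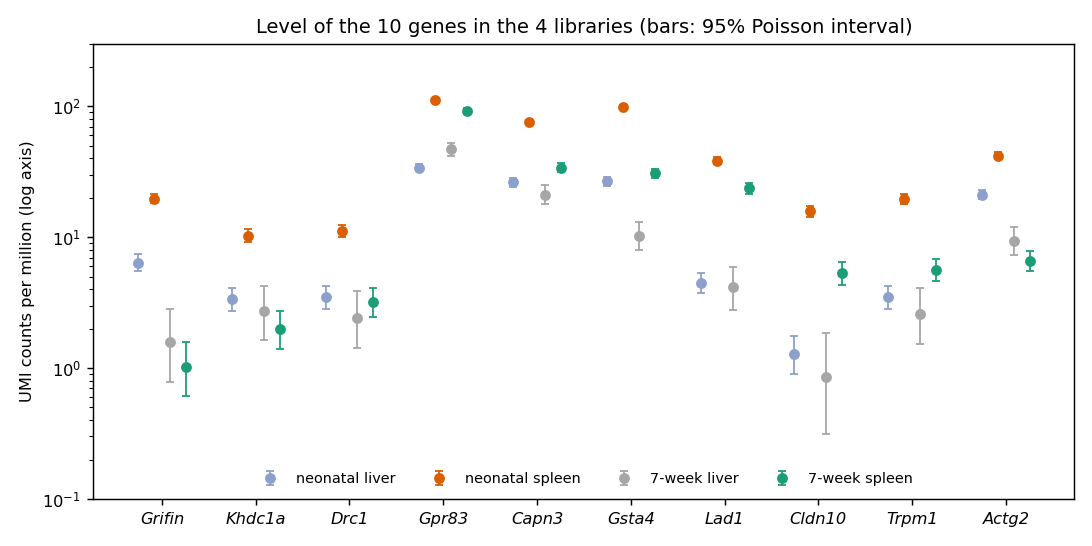
Level of each gene in each library, in UMI counts per 1000000 on a log axis, with 95% Poisson intervals as bars and 1 point per library. Neonatal spleen is the highest point for all 10 genes, from 10.3 CPM for Khdc1a to 112 CPM for Gpr83.

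Promoter sequences are shown for members that were high in resting-like cells and for Cldn10, the gene with the widest tissue difference, so that the letters around their start sites can be read beside the levels. They are RefSeq promoters on GRCm38.p6, from 250 bases before to 50 bases after a start site, printed on the strand of the gene with motif matches in capitals. Their positions are chr5:140565018-140565317 (minus strand) for Grifin, chr9:14859960-14860259 (plus) for Gpr83, chr5:30281143-30281442 (plus) for Drc1 and chr14:118854700-118854999 (plus) for Cldn10, which has another start site upstream.
Grifin: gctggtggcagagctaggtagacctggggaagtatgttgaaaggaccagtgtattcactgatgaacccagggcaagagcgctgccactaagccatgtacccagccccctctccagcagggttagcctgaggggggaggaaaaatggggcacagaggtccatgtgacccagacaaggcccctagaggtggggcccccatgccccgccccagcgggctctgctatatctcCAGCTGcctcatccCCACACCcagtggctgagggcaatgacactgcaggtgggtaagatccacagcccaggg
Gpr83: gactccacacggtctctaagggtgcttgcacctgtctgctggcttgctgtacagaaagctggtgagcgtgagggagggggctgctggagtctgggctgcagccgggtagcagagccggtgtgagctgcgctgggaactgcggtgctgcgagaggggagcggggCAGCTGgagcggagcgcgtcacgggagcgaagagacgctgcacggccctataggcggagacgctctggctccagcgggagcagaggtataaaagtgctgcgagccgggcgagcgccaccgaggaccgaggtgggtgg
Drc1: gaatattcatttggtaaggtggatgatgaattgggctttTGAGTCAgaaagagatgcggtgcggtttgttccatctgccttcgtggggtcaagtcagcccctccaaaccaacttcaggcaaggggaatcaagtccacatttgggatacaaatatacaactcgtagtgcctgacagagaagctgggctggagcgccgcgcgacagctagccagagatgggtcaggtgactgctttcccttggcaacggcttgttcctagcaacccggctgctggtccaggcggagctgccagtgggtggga
Cldn10: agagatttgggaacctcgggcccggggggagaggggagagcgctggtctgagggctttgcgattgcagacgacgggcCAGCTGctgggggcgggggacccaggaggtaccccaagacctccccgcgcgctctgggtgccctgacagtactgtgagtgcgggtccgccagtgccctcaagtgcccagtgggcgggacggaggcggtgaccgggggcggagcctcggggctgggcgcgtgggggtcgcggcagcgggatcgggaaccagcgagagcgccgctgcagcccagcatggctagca
The table held 10 promoters for 7 of the 10 genes. Motifs were searched on both strands, and the palindromic E box CAGCTG was present in 5 of these 10 promoters (Capn3, Cldn10, Gpr83 and Grifin) and in 16.3% of all 32851 promoters. In Grifin it starts 22 bases before the start site, followed by the KLF motif GGTGTGG on the opposite strand 8 bases before it (7.58% of all promoters). In Gpr83 the E box starts 87 bases and in Cldn10 173 bases before the start site. Drc1 holds the AP-1 motif TGACTCA on the opposite strand, 211 bases before the start site (5.20% of all promoters). RUNX (TGTGGT, 16.8%) was matched in Capn3 only, and forkhead (TGTTTAC, 3.65%), TCF/LEF (CTTTGAT, 3.73%) and ETS (CGGAAGT, 6.42%) in none of the 10. A match describes these letters and shows no binding.

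Grifin (chr5:140563119-140565071, minus strand, GRCm38), a galectin-related protein of the lens, was at 19.8 CPM in neonatal spleen and 6.39 CPM in neonatal liver, against 1.01 CPM in 7-week spleen and 1.57 CPM in 7-week liver. Both neonatal libraries were above both 7-week libraries, whose values rest on 19 and 11 UMIs. The ratio of neonatal to 7-week spleen, 19.5 (12.4 to 32.6), was the largest of the 10 genes. Of 8 listed galectin genes 4 reached 10 CPM. None of these was at least 2-fold higher than in neonatal liver and 1, Lgals3, was at least 2-fold lower, with a median log2 ratio of -0.40 beside 0.002 over all genes tested. Against 7-week spleen 2 were at least 2-fold higher (median 0.71 beside 0.021). Of 5 lens markers 4 had no count in neonatal spleen, and the set summed to 0.0331 CPM.

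Khdc1a (chr1:21349641-21352200, plus strand), a KH domain gene of oocytes and early embryos, was at 10.3 CPM in neonatal spleen and 3.35 CPM in neonatal liver, against 1.97 CPM in 7-week spleen and 2.72 CPM in 7-week liver. Neonatal spleen stood apart. The intervals of the other 3 libraries lay within 1.39 to 4.24 CPM, and those of neonatal liver and 7-week spleen met only at 2.72 CPM. Its transcript is 97.5% identical to that of Khdc1c over 1947 bases, so the split of reads between them is uncertain, and Khdc1c was listed at 0.265 CPM in neonatal spleen. None of 8 genes listed for the Khdc1 family and the oocyte reached 10 CPM. Of 4 oocyte markers 3 were at 0, and Gdf9 was at 0.0663 CPM.

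Drc1 (chr5:30281388-30366695, plus strand), a subunit of the dynein regulatory complex of motile cilia, was at 11.1 CPM in neonatal spleen and 3.49 CPM in neonatal liver, against 3.20 CPM in 7-week spleen and 2.43 CPM in 7-week liver. Again 1 library was high and 3 were low: the ratios were 3.19 (2.55 to 4.03) over neonatal liver and 3.48 (2.64 to 4.66) over 7-week spleen. Of 9 other genes listed for this complex and cilia, none reached 10 CPM. Gas8, another subunit, was at 8.68 CPM in neonatal spleen and between 5.15 and 6.18 CPM elsewhere. The ciliated cell markers Foxj1, Dnah5 and Tekt1 had no count in neonatal spleen.

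Gpr83 (chr9:14860210-14870789, plus strand), a G protein-coupled receptor, was at 112 CPM in neonatal spleen and 33.9 CPM in neonatal liver, against 92.4 CPM in 7-week spleen and 47.1 CPM in 7-week liver. Both spleen libraries were above both liver libraries. The ratio over neonatal liver was 3.30 (3.07 to 3.55) and that over 7-week spleen 1.21 (1.14 to 1.28). Of the genes listed for its signalling, G proteins and arrestins among them, 6 reached 10 CPM and 0 were 2-fold higher or lower in any comparison, with median log2 ratios of -0.14, -0.39 and -0.04 over neonatal liver, 7-week liver and 7-week spleen.

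Capn3 (chr2:120456019-120504913, plus strand), a calcium-dependent protease of skeletal muscle, was at 76.1 CPM in neonatal spleen and 26.2 CPM in neonatal liver, against 34.1 CPM in 7-week spleen and 21.2 CPM in 7-week liver. Neonatal spleen was high and the other 3 libraries lay within 1.61-fold of each other. It shares 386 exonic bases on the same strand with Ganc, which was at 9.98 to 12.7 CPM in the 4 libraries. Of 6 other calpain genes at 10 CPM or more, 0 were at least 2-fold higher in any comparison and 1 was at least 2-fold lower than in 7-week liver. Muscle markers summed to 2.09 CPM in neonatal spleen, led by Ttn at 1.59 CPM.

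Gsta4 (chr9:78182774-78209349, plus strand), a glutathione transferase for aldehydes from lipid peroxidation, was at 98.8 CPM in neonatal spleen and 26.7 CPM in neonatal liver, against 30.9 CPM in 7-week spleen and 10.3 CPM in 7-week liver. Neonatal liver and 7-week spleen were near each other, and 7-week liver was the lowest. Of 21 other glutathione transferase genes 5 reached 10 CPM, and 0 of these were at least 2-fold higher than in neonatal liver while 3 were so over 7-week spleen (median log2 ratios -0.06 and 1.03). Gsto1, of the omega class, was at 68.8 CPM in neonatal spleen and 50.5 CPM in neonatal liver, against 33.3 CPM in 7-week spleen and 20.6 CPM in 7-week liver.

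Lad1 (chr1:135818598-135833342, plus strand), ladinin, a protein of the anchoring filaments of basement membranes, was at 38.5 CPM in neonatal spleen and 4.46 CPM in neonatal liver, against 23.7 CPM in 7-week spleen and 4.15 CPM in 7-week liver. Both spleen libraries were high and both liver libraries low, by 8.64-fold (7.20 to 10.4) at 12 days and 5.71-fold (3.92 to 8.63) at 7 weeks. Cldn10 (chr14:118787908-118875489, plus strand), a claudin of tight junctions, was at 15.7 CPM in neonatal spleen and 1.28 CPM in neonatal liver, against 5.34 CPM in 7-week spleen and 0.858 CPM in 7-week liver. Its order was that of Lad1, and its ratio over neonatal liver, 12.3 (8.81 to 17.7), was the largest of the 10 genes. The 7-week liver value rests on 6 UMIs. Of 16 other claudin and tight junction genes 2 reached 10 CPM in the comparisons with liver, and neither was 2-fold higher or lower. Of 5 epithelial markers Krt8 and Krt19 had no count in neonatal spleen and the set summed to 39.6 CPM, led by Epcam at 37.8 CPM, against 112 CPM in neonatal liver.

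Trpm1 (chr7:64153835-64269775, plus strand), a cation channel of retinal bipolar cells and melanocytes, was at 19.6 CPM in neonatal spleen and 3.49 CPM in neonatal liver, against 5.66 CPM in 7-week spleen and 2.58 CPM in 7-week liver. Neonatal spleen was above each other library by at least 3.47-fold (2.82 to 4.31, over 7-week spleen). The 3 other TRP channel genes at 10 CPM or more, Trpm4, Trpm7 and Trpv2, were within 2-fold in every comparison. Retina and melanocyte markers summed to 0.597 CPM in neonatal spleen, with Tyr and Dct at 0.

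Actg2 (chr6:83512905-83536265, minus strand), the gamma actin of enteric smooth muscle, was at 42.1 CPM in neonatal spleen and 21.1 CPM in neonatal liver, against 6.62 CPM in 7-week spleen and 9.44 CPM in 7-week liver. Both neonatal libraries were above both 7-week libraries, by 6.37-fold in spleen (5.29 to 7.72) and 2.23-fold in liver (1.73 to 2.92). Of 4 other actin and filament genes at 10 CPM or more, 0 were 2-fold higher or lower in any comparison. The 5 smooth muscle markers summed to 0.597 CPM in neonatal spleen.

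A UMI of any 1 member was seen in a minority of cells. After thinning every cell to 1000 UMIs, which left 5428 neonatal spleen cells, the share with a UMI ran from 1.20% for Khdc1a to 9.93% for Gpr83 (3.71% and 29.9% without thinning) and was the highest of the 4 libraries for each of the 10 genes. For Grifin it was 2.34% in neonatal spleen and 0.0894% in 7-week spleen, and for Lad1 2.97% and 1.86%. At 2000 UMIs per cell, 48.5% of 4956 neonatal spleen cells had a UMI of at least 1 of the 10 genes, against 27.5% in 7-week spleen, 19.6% in neonatal liver and 16.1% in 7-week liver. In 89 cells of other lineages in the neonatal spleen library that share was 36.0% (26.1% to 46.8%). The 48.5% is therefore not read as a share of cells that express these genes. The removed macrophage, dendritic and B cell clusters held Foxp3 at 399, 257 and 270 CPM over the 4 libraries. Whether free RNA or Treg cells caught with them gave their member UMIs was not tested. The median depth before thinning was 4693 UMIs in these 89 cells and 4879 UMIs in the 4956 Treg cells.

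Gene by gene, thinned to 1000 UMIs, 126 cells of other lineages could be compared (median 3545 UMIs before thinning, against 4658 in Treg cells). Capn3 was found in 2.38% of them (3 cells, 0.494% to 6.80%), below its share of 7.44% in Treg cells. Without thinning it was found in 14.6% of 192 cells of other lineages, at a median of 1583 UMIs. That share was 26.8% in Treg cells, at a median of 4531 UMIs. For the other members, thinned, the interval or the limit took in the Treg share. Gpr83 was found in 6.35% (2.78% to 12.1%) against 9.93%, Gsta4 in 3.97% (1.301% to 9.02%) against 8.24%, and Lad1 in 1.59% (0.193% to 5.62%) against 2.97%. Actg2 was found in 1.59% (0.193% to 5.62%) against 2.65%, Cldn10 in 0.794% (0.0201% to 4.34%) against 1.31%, and Trpm1 in 2.38% (0.494% to 6.80%) against 1.92%. Grifin, Khdc1a and Drc1 had no UMI in the 126 cells, where a count of 0 allows a share of up to 2.38% (3 counts), above their shares of 2.34%, 1.20% and 1.36%. At this number of cells the shares of these 9 genes were thus not separable from those in other lineages. These shares are not read as expression. For the 10 genes together, a UMI was found in 17.5% of the 126 cells (11.3% to 25.2%), against 31.0% of Treg cells.

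Cells were clustered without the 10 genes among the variable genes, and clusters were named by markers. A cluster drawn mainly from 1 library may reflect that library. Resting-like cells of neonatal spleen lay mainly in cluster 1 (1503 of 1552 cells), where 10 of 11 resting markers were raised. Cluster 8 (285 cells, led by Lta, Dnah7a, Lrrc32 and Myc) had no name. Grifin was at 41.8 CPM in resting-like cells and 48.3 CPM in cluster 8, Khdc1a at 22.1 and 38.2 CPM, Drc1 at 28.5 and 24.9 CPM, and Gpr83 at 220 and 333 CPM. For these 4 genes no other cluster with at least 100 neonatal spleen cells was higher, while in the 37 interferon-like cells Khdc1a was at 29.4 CPM on 5 UMIs. Cluster 1 held 26.5% of the cells but 55.7% of the Drc1 UMIs, 46.8% of those of Khdc1a, 46.1% of those of Grifin and 43.0% of those of Gpr83. In effector-like cells Gpr83 was at 11.8 CPM and Grifin at 1.76 CPM, and resting-like cells were 18.7-fold (13.7 to 26.3) and 23.7-fold (10.8 to 65.2) above them. Drc1 and Khdc1a had 1 and 2 UMIs there.

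Cluster 7 (846 cells, 14.9% of neonatal spleen) had no name, with 4 of 8 thymic emigrant markers raised and with Lad1, Eno3, Trpm1 and Cldn10 at its head. Leading such a cluster is how members were picked. It held 54.6% of the Lad1 UMIs of the library, 52.8% of those of Cldn10, 52.4% of those of Trpm1 and 43.9% of those of Gsta4. Against resting-like cells, cluster 7 was higher by 4.28-fold for Lad1 (3.60 to 5.11), 3.13-fold for Trpm1 (2.51 to 3.92), 2.58-fold for Cldn10 (2.05 to 3.26) and 1.81-fold for Gsta4 (1.65 to 1.98). It was lower for Grifin (ratio 0.564, 0.457 to 0.693), Gpr83 (0.552), Khdc1a (0.424) and Drc1 (0.340), and level for Capn3 (0.976, 0.872 to 1.09). Lad1 was also high in TCR-stimulated-like cells (189 cells, led by Egr3, Egr2 and Nr4a1), at 108 CPM against 106 CPM in cluster 7. Actg2 was at 8.36 CPM in resting-like and 30.3 CPM in effector-like cells, and at 54.2 to 72.5 CPM in clusters 4, 6, 7, 11 and 12.

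**Figure D2:**
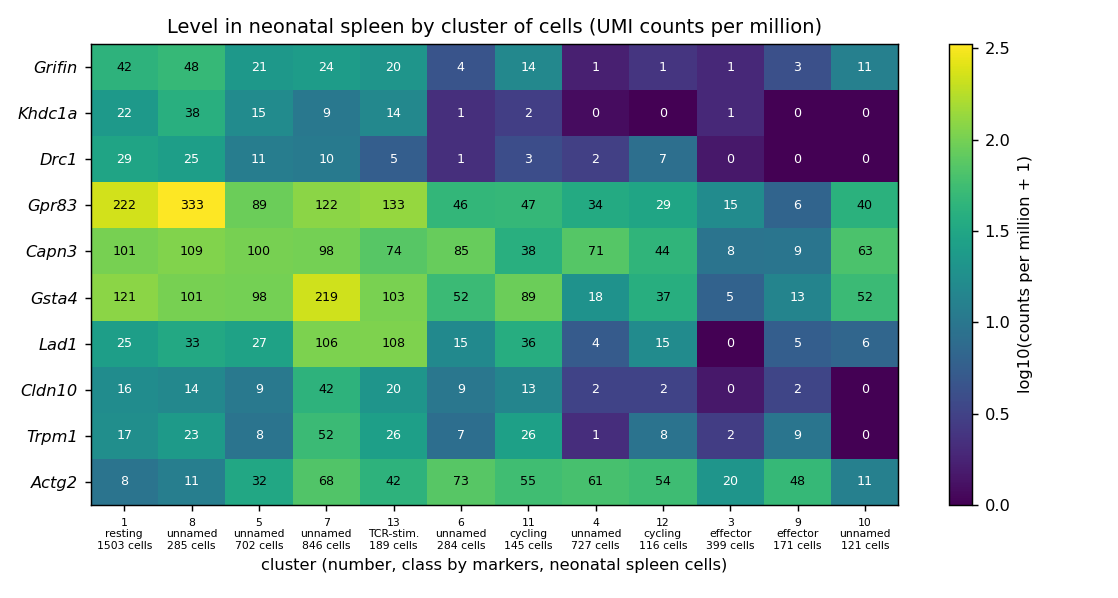
Level of the 10 genes (rows) in the neonatal spleen cells of each cluster with at least 100 such cells (columns, with class and number of cells), printed as UMI counts per 1000000 and coloured on a log scale. Grifin, Khdc1a, Drc1 and Gpr83 are highest in clusters 1 and 8, Gsta4, Cldn10 and Trpm1 in cluster 7, Lad1 in clusters 7 and 13, and Actg2 is at 8.27 CPM in cluster 1.

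For each of 45 pairs, the number of neonatal spleen cells with both genes (of 4956, thinned to 2000 UMIs) was divided by the number expected if the genes were independent. Among genes high in resting-like cells, Grifin and Drc1 were in 17 cells together where 5.10 were expected (3.33, 1.94 to 5.34), and Khdc1a and Drc1 in 9 where 2.76 were expected (3.26, 1.49 to 6.19). Among genes high in cluster 7, Cldn10 and Trpm1 were in 15 cells where 4.56 were expected (3.29, 1.84 to 5.43), and Gsta4 and Cldn10 in 54 where 19.4 were expected (2.78, 2.09 to 3.63). Lad1 and Cldn10, of the same group, were in 10 where 6.97 were expected (1.43, 0.688 to 2.64). Both groups were formed from levels in these same cells, so nothing is read from ratios above 1 within a group. Lad1 and Khdc1a were in 2 cells where 5.43 were expected (0.368, 0.0446 to 1.33), and Gpr83 and Actg2 in 27 where 47.8 were expected (0.565, 0.373 to 0.822). Pairs of 1 gene from each group could be high too: Lad1 and Grifin were in 22 cells together (2.19, 1.37 to 3.32) and Grifin and Trpm1 in 14 (2.13, 1.17 to 3.58). In all 19 pairs reached 1.5 and 7 were below 1. For these pairs within single classes, 3 of the 5 intervals given next included 1. Within cluster 7 (826 cells) Cldn10 and Trpm1 were at 1.77 (0.885 to 3.17) and Gsta4 and Cldn10 at 1.61 (1.07 to 2.33). Within resting-like cells (1480 cells) Grifin and Drc1 were at 1.78 (0.890 to 3.19), Khdc1a and Drc1 at 1.95 (0.784 to 4.02), and Gsta4 and Cldn10 at 2.12 (1.24 to 3.40). These cells share a library and differ in class, and no pair had a Pearson r above 0.132 in neonatal spleen. In 4491 neonatal liver cells, Gsta4 and Gpr83 were together in 64 where 16.1 were expected (3.98, 3.07 to 5.08), against 1.37 in neonatal spleen. Gsta4 and Cldn10 were in 6 there where 0.946 were expected (6.34, 2.33 to 13.8). Gpr83 and Actg2 were in 5 where 9.47 were expected (0.528, 0.171 to 1.23). Grifin with Drc1, Khdc1a with Drc1 and Cldn10 with Trpm1 shared 1, 0 and 1 cells there, where 0.521, 0.373 and 0.136 were expected. These numbers are too small to compare with neonatal spleen.

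**Figure D3:**
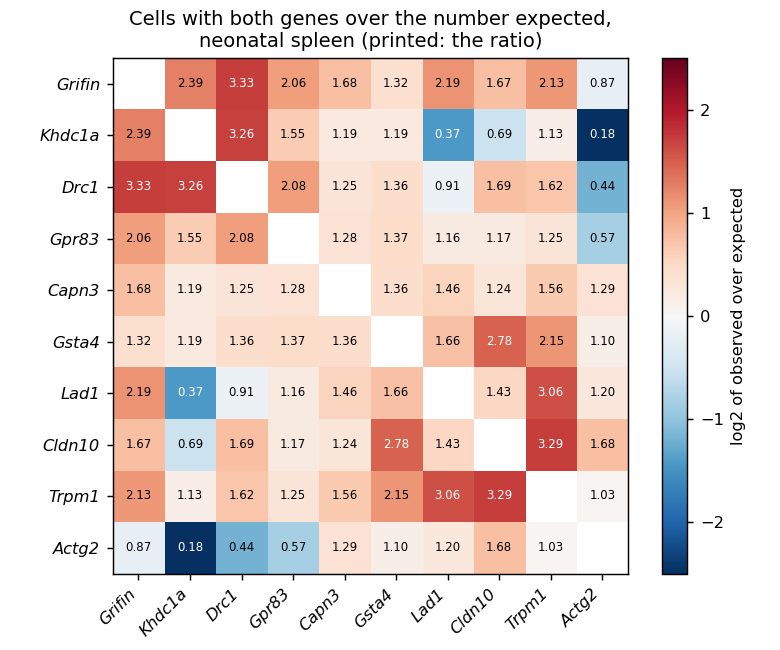
Cells with both genes over the number expected if the genes were independent, for each pair of the 10 genes in 4956 neonatal spleen cells thinned to 2000 UMIs (printed: the ratio; colour: its log2). Grifin with Drc1 (3.33) and Cldn10 with Trpm1 (3.29) are the highest, and Khdc1a with Actg2 (0.179) is the lowest.

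Libraries were then compared within resting-like cells, which made up 27.3% of neonatal spleen, 15.6% of neonatal liver, 31.0% of 7-week spleen and 33.6% of 7-week liver cells. Effector-like cells were 10.0% of neonatal spleen and 38.6% of neonatal liver. Within resting-like cells 1 of the 10 genes, Cldn10, was at least 2-fold higher in neonatal spleen than in neonatal liver (2.37, 1.48 to 3.99), and the median ratio was 1.16. Of all 10477 genes with more than 3 UMIs in both, 1.51% were so. Over all cells the count of members was 9 of 10. With coarser clusters (background 1.62%), or with the members allowed among the variable genes (background 1.57%), the count within the class was 3 of 10. Grifin was at 41.8 CPM in spleen and 41.2 CPM in liver (1.02, 0.821 to 1.26), Gpr83 at 220 and 208 CPM (1.06, 0.966 to 1.17) and Khdc1a at 22.1 and 23.2 CPM (0.953, 0.714 to 1.28). Gsta4 was lower in spleen, at 121 against 142 CPM (0.853, 0.758 to 0.960). Lad1 (1.95, 1.37 to 2.84) and Drc1 (1.86, 1.34 to 2.62) were higher in spleen. In both neonatal libraries cluster 1 held most of the class, with 1503 of 1552 and 796 of 832 cells.

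Against 7-week spleen, 7 of the 9 genes with more than 3 UMIs in resting-like cells of both libraries were at least 2-fold higher in neonatal spleen, with a median ratio of 3.24, against a background of 4.94% of 10658 genes. With the other clusterings it was 8 of 10 in both (backgrounds 5.83% and 5.81%). Over 7-week liver 9 of 10 were at least 2-fold higher in this class (background 5.85%). Grifin was at 41.8 CPM against 1.55 CPM (27.1-fold, 13.5 to 63.3), Drc1 at 28.5 against 5.80 CPM (4.92, 3.34 to 7.49) and Gsta4 at 121 against 32.1 CPM (3.78, 3.19 to 4.49). Lad1 (1.31, 1.01 to 1.70) and Gpr83 (1.58, 1.44 to 1.73) stayed under 2-fold, as they did over all cells. Different clusters held most of the class at the 2 ages: cluster 1 had 1503 neonatal and 120 7-week spleen cells, and cluster 0 had 49 and 1641. Within cluster 1 alone, 2 of the 6 genes with enough UMIs were at least 2-fold higher (background 3.08% of 7055 genes), with a median ratio of 1.61. They were Capn3 (2.54, 1.53 to 4.56) and Drc1, whose 7-week value rests on 4 UMIs (2.70, 1.04 to 10.0). The count and the median leave out members with too few UMIs in the 7-week spleen cells of this cluster. Of these, Grifin was at 42.1 CPM in neonatal and 5.30 CPM in 7-week spleen, on 2 7-week UMIs. Khdc1a was at 22.2 and 2.65 CPM, on 1 7-week UMI. Cldn10 and Actg2, at 15.8 and 8.27 CPM in neonatal spleen, had no UMI in the 7-week spleen cells.

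**Figure D4:**
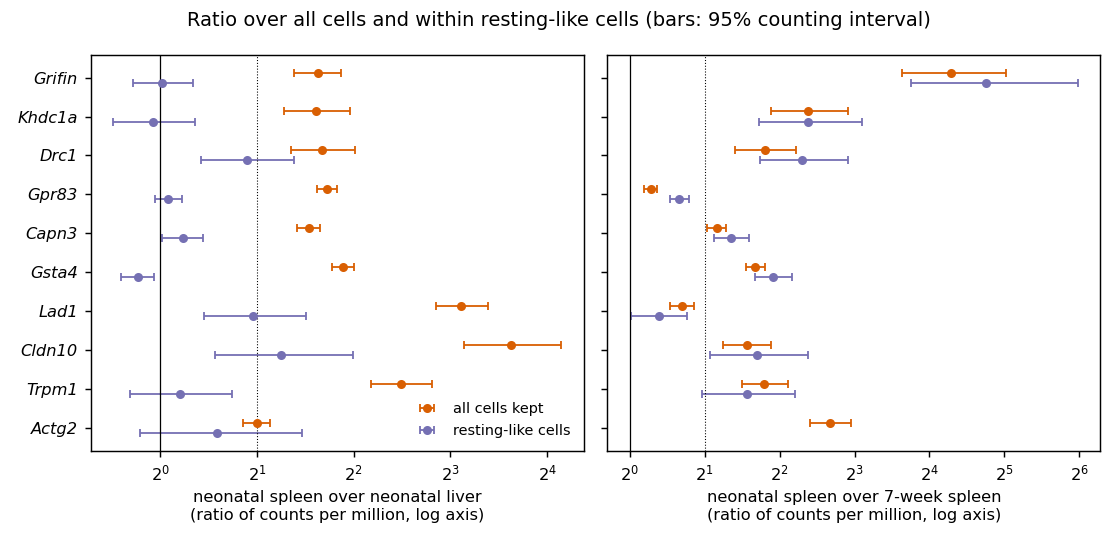
Ratio of neonatal spleen to neonatal liver (left) and to 7-week spleen (right) on log axes, over all cells and over resting-like cells, with 95% counting intervals; the solid line marks 1 and the dotted line 2. On the left the resting-like ratio is below the all-cell ratio for all 10 genes. On the right 7 of 9 resting-like ratios are at least 2, and Actg2 has none because 7-week spleen had 3 UMIs.

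Cluster 7 was unequal between libraries, with 846 cells (14.9%) in neonatal spleen, 131 (2.31%) in 7-week spleen, 35 (0.656%) in neonatal liver and 3 (0.128%) in 7-week liver. Within it Lad1 was lower in neonatal than in 7-week spleen, at 106 against 186 CPM (0.572, 0.478 to 0.689), the opposite of its order over all cells. Gsta4 was 2.48-fold (1.95 to 3.19) and Trpm1 1.54-fold (1.04 to 2.38) higher in neonatal spleen. Cldn10 was also at least 2-fold higher, by more than Gsta4, on 251 UMIs in neonatal and 5 UMIs in 7-week spleen. Grifin, at 23.6 CPM in the neonatal spleen cells, and Khdc1a, at 9.37 CPM, had no UMI in the 131 7-week spleen cells. With cluster 7 left out, 8, 9 and 7 of the 10 genes were at least 2-fold higher than in neonatal liver, 7-week liver and 7-week spleen (backgrounds 0.941%, 4.19% and 3.55%), and all 10 were still above each other library. The log2 ratio of Cldn10 over 7-week spleen was then 0.81, where it was 1.56 with the cluster.

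Among the genes ranked above, those outside the 10 with the same library pattern were led by Eno3, the muscle enolase. This gene had a ratio of neonatal spleen to the highest other library of 3.09 (84.0 CPM in neonatal spleen and 27.2 CPM in 7-week spleen). After it came Cd160 (2.84), Rasip1 (2.58), Gabrr2 (2.56), Ckb (2.22), Colq (2.16), Dapl1 (2.07), Itm2a (2.04), Zfp821 (1.94) and Plagl1 (1.85), ranked over 4 libraries. Across 4956 neonatal spleen cells Eno3 also had the highest Pearson r with the summed count of the 10 genes (0.226), before Ecm1 (0.197) and Chchd10 (0.173). The lowest were S100a11 (-0.272), S100a6 (-0.249) and S100a4 (-0.232), calcium-binding proteins high in effector T cells. Taken singly, Lad1 was most like Nolc1 (0.184), Gpr83 most like Ms4a4b (0.171), Cldn10 most like Itm2a (0.148), Grifin most like Ecm1 (0.127) and Actg2 most like the chemokine receptor Ccr6 (0.120). The cells share a library, and these weak correlations are given as a description only.

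Lists of Treg genes were read beside the 10 genes, whose own median log2 ratios were 1.70, 2.56 and 1.74 over neonatal liver, 7-week liver and 7-week spleen, where those of all genes tested were 0.002, 0.024 and 0.021. Of 15 resting and recirculation genes, 5 were at least 2-fold higher and 0 lower than in neonatal liver (median 0.75). Over 7-week liver 2 were higher and 2 lower (median -0.13), and over 7-week spleen 1 was higher and 2 lower (median 0.03). Among them Id3, an inhibitor of E proteins, was at 364 CPM in neonatal spleen and 88.0 CPM in neonatal liver. The survival gene Bcl2 was at 137 and 45.1 CPM. In 7-week spleen Id3 was at 279 CPM and Bcl2 at 157 CPM. Il7r was lower in neonatal spleen (107 CPM) than in neonatal liver (141 CPM), 7-week liver (306 CPM) and 7-week spleen (226 CPM). Of 20 effector Treg genes at 10 CPM or more 12 were at least 2-fold lower than in neonatal liver (median -1.28), and 8 of 19 were at least 2-fold higher than in 7-week spleen (median 0.76). Of 6 genes of recent thymic output at 10 CPM or more, 3, 4 and 1 were at least 2-fold higher than in neonatal liver, 7-week liver and 7-week spleen (medians 1.13, 1.12 and 0.57). Itm2a, a membrane protein of maturing thymocytes, was at 163 CPM in neonatal spleen, 65.0 CPM in neonatal liver, 80.1 CPM in 7-week spleen and 44.1 CPM in 7-week liver, and Rag1 and Rag2 had no count in neonatal spleen. Of 15 Treg identity genes 0, 1 and 0 were at least 2-fold higher and 3, 2 and 2 at least 2-fold lower, the 3 over neonatal liver being Tigit, Entpd1 and Icos (medians -0.18, -0.18 and -0.34). Medians between -0.13 and 0.03, those of the related gene families among them, changed sign under some of the alternatives.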

How the data were processed

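Sorted Treg cells were profiled in 4 libraries, 1 per group. The deposited matrices hold raw UMI counts by gene and barcode. Cell Ranger 4.0.0 made them, per the file headers, and mm10 and Seurat 4.0.2 are named per the submitters' processing notes. No annotation release is named in the labels or headers.

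Barcodes with 500 or more genes and no more than 10% mitochondrial UMIs passed (6178 in neonatal spleen, 5668 in neonatal liver, 6024 in 7-week spleen, 2424 in 7-week liver). Scrublet's automatic threshold marked 0 cells, so the highest scores were removed at 0.8% per 1000 cells. Clustering used scanpy 1.11.5 and leidenalg 0.10.2 with 2000 variable genes other than the members, 30 components, 15 neighbours and resolution 1.0. Clusters with markers of other lineages among their leading genes were removed (38 to 192 cells a library). A name needed at least 3 markers of a set and most of that set, each raised 1.5-fold and found in 5% of the cluster's cells. No other set could hold more of the cluster's leading genes. A cluster far below its library's median depth also needed a marker of the set among its leading genes. Clusters 10 and 15, at 0.186 and 0.318 of that depth, stayed unnamed with 11 of 14 cycling and 8 of 11 resting markers raised. The doublet and naming rules were set after the data were seen.

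UMI counts were summed per library or cell group. A gene counted as higher at a ratio of at least 2 if the higher library reached 10 CPM. This rule and the intervals were tried on simulated counts with counting error only. The simulation held no variation between animals or libraries, so it cannot show how the rule performs between groups. Alternatives were edgeR 4.0.16 TMM scaling, other filters, floors, folds, thinning and clusterings. Positions are from GENCODE vM21 on GRCm38, with features matched by identifier. Ratios were computed only where both groups had more than 3 UMIs.

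The members, 13 gene lists, markers and comparisons were chosen with earlier results of these data known, so no list is independent evidence. The genes named are the 10 members, the 10 most like them by library (at least 100 UMIs), those most like them by cell (at least 100 cells with a UMI), and up to 4 from each list by size of log2 ratio. The gene classes left out of the ranking by library were also left out of the correlations by cell. Gas8, Gsto1, Id3, Bcl2, Il7r, the genes least like the members by cell and those leading a cluster were named after their values were seen.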

Additional observations from a re-analysis of the deposited data

Results flagged for a closer look

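For 4 of the 10 genes the 2 contrasts of the same kind pointed in opposite directions. Each rests on 1 library per group, and the differences were not tested. Grifin was higher in spleen than in liver at 12 days (ratio 3.09, 2.62 to 3.66) and lower at 7 weeks (0.644, 0.291 to 1.499, on 19 and 11 UMIs). Khdc1a was likewise higher in spleen at 12 days (3.07, 2.43 to 3.89) and lower at 7 weeks (0.726, 0.407 to 1.34). For both genes the interval at 7 weeks includes 1. Actg2 was higher in neonatal spleen than in neonatal liver (1.9987, 1.81 to 2.20), and 7-week spleen was below 7-week liver (0.701, 0.516 to 0.960). Gpr83 was higher at 12 days than at 7 weeks in spleen (1.21, 1.14 to 1.28) and lower at 12 days in liver (0.721, 0.636 to 0.819).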

How the results depend on the processing

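No paired analysis was possible because each group has 1 library, and no library could be left out of a group. With a floor of 25 CPM, 4, 5 and 3 of the 10 genes counted as at least 2-fold higher than in neonatal liver, 7-week liver and 7-week spleen, since fewer members reach that floor. All genes at least 2-fold higher than in each other library numbered 21, and 8 with that floor, 52 at a fold of 1.5 and 10 at a fold of 3. Within resting-like cells the members at least 2-fold higher than in neonatal liver numbered 1, and 3 at clustering resolution 0.5 and 3 with members among the variable genes; the cause was not tested. The other 75 values of such counts stayed within 1.5 times of the main value. Among them is the number of members whose share of cells was highest in neonatal spleen. Of 329 member log2 ratios under 11 alternatives 39 moved beyond their interval and 0 changed sign, while 13 of 240 list medians changed sign, each from a value between -0.13 and 0.03. Leaving out cluster 7 and the cells with shared barcodes was chosen after seeing the data. Members with few UMIs in 7-week liver (6 for Cldn10, 11 for Grifin) have the widest intervals.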
